A study of Homo sapiens with 4 samples.

Results

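The subtelomeric domains are the domains at the ends of the human autosomes. A domain was counted when its midpoint lay within 5 Mb of either limit of chromosomes 1 to 22. The short-arm ends of chromosomes 13, 14, 15, 21 and 22 were left out, which left 39 of 44 ends. These windows held 195 Mb, or 6.78% of the 2875.36 Mb of the autosomes. Over 4 libraries they held 1168 of the 14569 autosomal domains and of the 15427 domains on all chromosomes. By library the number was 316 in shLUC replicate 1, 321 in shLUC replicate 2, 305 in shHNRNPU replicate 1 and 226 in shHNRNPU replicate 2. The remaining 2680.36 Mb of the same chromosomes served for comparison and held 3473, 3468, 3425 and 3035 domains in the same order. Values given by library below keep that order, with the shLUC libraries first.

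All libraries came from H1 cells, an established line of human pluripotent stem cells (hPSCs). Cells were infected with a lentivirus carrying a short hairpin RNA (shRNA) and selected with puromycin. The hairpin was directed against HNRNPU, a nuclear RNA-binding protein, in shHNRNPU (2 libraries), and against luciferase in the control, shLUC (2 libraries). Chromosome folding was measured by Hi-C, in which chromatin is crosslinked with formaldehyde, cut with HindIII, religated with a biotin label and sequenced. The labels do not say whether the libraries of a group came from separate cultures, so each p-value measures only the spread between these libraries. The files give positions of domains, boundary regions and gaps in bins of 40 kb. They hold neither contact counts nor transcript levels, so the depth of each library and the level of HNRNPU are unknown.

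A domain is a stretch of chromosome whose segments touch each other more often than they touch the flanking sequence, and a border is the place where this preference changes. The subtelomere is the gene-rich sequence next to the telomere repeats, known for repeats and segments that are shared between chromosomes. Here a boundary region is an interval that the authors placed between separated domains, and a gap is an interval assigned to neither kind. How gaps were defined is not given in the sources used here. HindIII cuts at AAGCTT, a palindrome that reads the same on both strands.

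The sequences of 4 promoters from these ends are printed as examples and do not represent the promoters there. They differ in the interval at the gene start or in the border near it. The promoters are windows of 300 bases from RefSeq, with 250 bases before the gene start and 50 after it, in GRCh38.p14, printed 5′ to 3′ on the strand of the gene. CG dinucleotides are in capitals. CHL1, a neural adhesion molecule, lay in the outermost domain of 3p in all 4 libraries (chr3:197639-197938, plus strand, 61.7% G or C).
CHL1: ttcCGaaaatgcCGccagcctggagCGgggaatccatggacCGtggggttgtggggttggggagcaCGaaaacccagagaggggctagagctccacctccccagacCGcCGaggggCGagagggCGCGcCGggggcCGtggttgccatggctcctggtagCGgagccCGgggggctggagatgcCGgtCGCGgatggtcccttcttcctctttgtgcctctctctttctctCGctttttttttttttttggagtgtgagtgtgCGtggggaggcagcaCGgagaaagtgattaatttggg
FGFR3, a fibroblast growth factor receptor on 4p, started in a bin that was gap in all 4 libraries (chr4:1793043-1793342, plus strand, 86.3% G or C).
FGFR3: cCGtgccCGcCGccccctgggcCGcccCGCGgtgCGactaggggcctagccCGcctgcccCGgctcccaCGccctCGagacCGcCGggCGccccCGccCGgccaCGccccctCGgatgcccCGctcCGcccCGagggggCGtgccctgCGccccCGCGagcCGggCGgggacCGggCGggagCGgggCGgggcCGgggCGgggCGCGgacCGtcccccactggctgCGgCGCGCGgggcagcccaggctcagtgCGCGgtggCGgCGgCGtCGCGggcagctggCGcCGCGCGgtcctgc
CDT1, a factor that licenses replication origins on 16q, started in a bin that was gap in both shLUC libraries and in neither shHNRNPU library (chr16:88803539-88803838, plus strand, 74.3% G or C).
CDT1: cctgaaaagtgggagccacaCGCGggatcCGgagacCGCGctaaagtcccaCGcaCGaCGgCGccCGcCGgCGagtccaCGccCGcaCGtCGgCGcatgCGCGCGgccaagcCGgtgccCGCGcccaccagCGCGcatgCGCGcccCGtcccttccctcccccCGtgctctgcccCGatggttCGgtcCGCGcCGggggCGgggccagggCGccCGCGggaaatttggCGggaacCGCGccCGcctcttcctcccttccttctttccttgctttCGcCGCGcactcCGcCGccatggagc
HNRNPU, the gene targeted by the hairpin, lies on 1q within 40 kb of a border found in both shLUC libraries and in neither shHNRNPU library (chr1:244864494-244864793, minus strand, 67% G or C).
HNRNPU: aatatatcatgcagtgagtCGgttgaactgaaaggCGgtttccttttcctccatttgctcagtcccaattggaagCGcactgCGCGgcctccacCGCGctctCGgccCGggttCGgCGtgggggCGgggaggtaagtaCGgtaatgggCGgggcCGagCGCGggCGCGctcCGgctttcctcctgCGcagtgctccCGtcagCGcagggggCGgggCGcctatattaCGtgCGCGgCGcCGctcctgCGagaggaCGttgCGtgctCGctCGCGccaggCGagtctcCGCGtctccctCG
None of these 4 windows held AAGCTT.

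The ends were dense in genes, with promoters rich in G and C. They held 2497 protein-coding genes, or 12.8 per Mb, against 6.20 per Mb in the rest. Over the 4176 promoters of the RefSeq table that lie at the ends, the median G and C content was 64.7%, against 57.7% over 29549 promoters of the rest. AAGCTT occurred in 3.88% of the promoter windows at the ends, in 6.12% of those in the rest and in 5.84% of all. These shares describe promoters and not whole windows. Only 73.8% of the protein-coding genes at the ends had an entry in that table, so no check gene by gene was made.

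One library stood apart. shHNRNPU replicate 2 had the fewest domains both at the ends and in the rest, and alone had the fewest at 19 of the 39 ends. Differences between the groups are therefore given with and without it. The smallest p of the exact permutation test of 2 libraries against 2 is 0.33, and that of the exact sign-flip permutation test of ends against rest over 4 libraries is 0.13, both rounded. Neither design can reach significance, and the p-values say nothing about stability.

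Domains were denser at the ends than in the rest of the same chromosomes. Per Mb that is not gap the ends held 1.71 and 1.74 domains in shLUC and 1.63 and 1.21 in shHNRNPU. The rest held 1.36, 1.35, 1.34 and 1.19 domains per Mb. The mean difference of 0.263 ± 0.165 domains per Mb (SD, n = 4) was above 0 in 4 of 4 libraries, at the smallest p this exact sign-flip permutation test allows (p = 0.13). It was 0.0232 in shHNRNPU replicate 2, so that the ends of this library were barely denser than its rest. In the outermost Mb the density reached 2.07, 2.06, 1.80 and 1.43 domains per Mb.

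**Figure D1:**
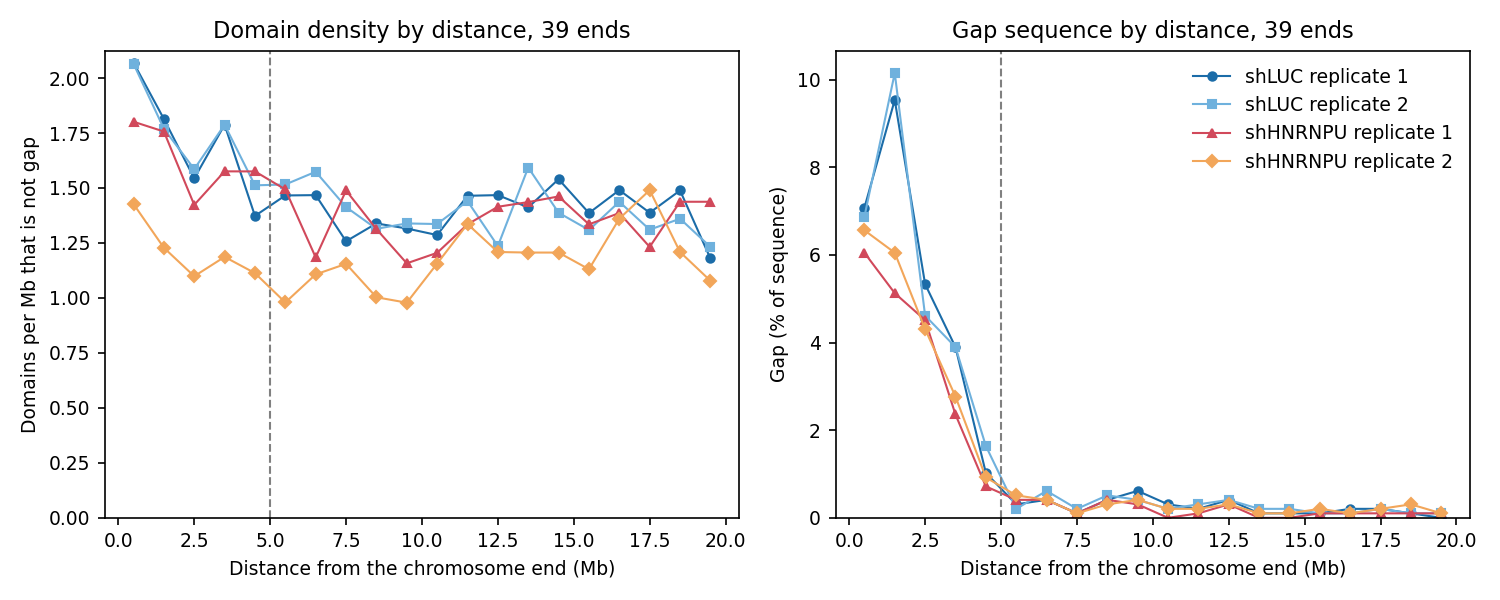
Domains per Mb that is not gap (left) and percent of sequence that is gap (right) against the distance from the chromosome end in Mb, in steps of 1 Mb over 39 ends, with 1 line per library and the 5 Mb limit dashed. Density in the outermost Mb is 1.43 to 2.07 domains per Mb, the highest of the 20 steps in 3 libraries but below the 1.49 at 17 to 18 Mb in shHNRNPU replicate 2, and gap sequence falls from 5.13% to 10.2% at 1 to 2 Mb to under 1% beyond 5 Mb.

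Many of these domains touched a gap, and in 3 of the 4 libraries the excess was larger at ends with more gap. A domain counts as touching when it met or spanned a gap of any of the 4 libraries, not only of its own. This held for 50.6%, 51.1%, 45.2% and 54.0% of the domains at the ends, against 11.4%, 11.7%, 10.9% and 12.2% of those in the rest. At the 13 ends with fewer than 3 gap bins in every library the density was 1.39, 1.51, 1.47 and 1.23 domains per Mb, which exceeded the rest in 4 of 4 libraries, by a mean of 0.0917 domains per Mb. The other 26 ends had 1.89, 1.86, 1.71 and 1.20 domains per Mb, so that in shHNRNPU replicate 2 they lay below the ends with few gaps. This split was chosen after the values were seen. When domains that touched a gap were left out and the sequence was kept, the difference turned to −0.372 domains per Mb, which follows in part from the larger share left out at the ends.

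The median domain was also shorter at the ends. Median lengths at the ends were 440 kb for each shLUC library, and 480 and 600 kb for shHNRNPU replicates 1 and 2. In the rest it was 560, 600, 600 and 640 kb. The ends were lower in 4 of 4 libraries, by 110 ± 50.3 kb on average (SD, n = 4, exact sign-flip permutation p = 0.13). With each chromosome weighted equally the difference in medians was −36.4 kb (exact sign-flip permutation p = 0.625). Mean lengths were 557, 541, 622 and 833 kb at the ends and 713, 717, 721 and 825 kb in the rest, lower at the ends in 3 of 4 libraries (exact sign-flip permutation p = 0.25). Among domains that touched no gap of any library the medians were 520, 560, 560 and 680 kb at the ends. In the rest they were 600, 600, 600 and 640 kb. The median of shHNRNPU replicate 2 was thus the higher at its ends. The mean over the same domains was lower at the ends in each library (605, 651, 608 and 738 kb against 704, 707, 712 and 795 kb).

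Short domains were more frequent at the ends. Domains of 200 kb or less made up 20.9%, 21.8%, 16.4% and 18.1% of the domains at the ends, against 8.09%, 8.74%, 8.12% and 9.32% in the rest. The shares differed by 10.7 ± 2.54 percentage points (SD, n = 4), higher at the ends in 4 of 4 libraries (exact sign-flip permutation p = 0.13). Boundary regions took 3.03%, 2.49%, 2.71% and 1.03% of the sequence that is not gap at the ends and 3.32%, 3.14%, 3.28% and 2.03% in the rest. This share was lower at the ends in 4 of 4 libraries (mean difference −0.629 percentage points, exact sign-flip permutation p = 0.13).

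**Figure D2:**
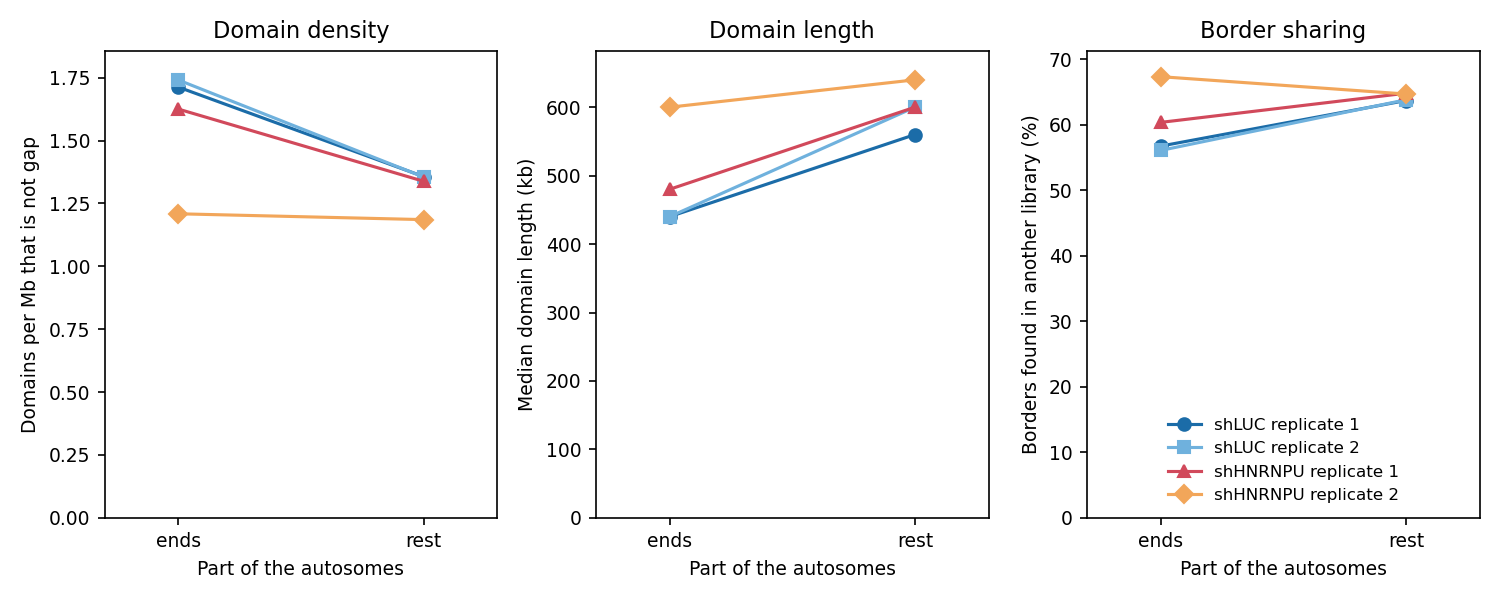
Domain density (domains per Mb that is not gap), median domain length (kb) and border sharing (percent of borders found in another library, mean over the other 3) at the ends and in the rest of the autosomes, with 1 line per library. Density is higher and median length lower at the ends in all 4 libraries, while border sharing is lower at the ends in 3 libraries and higher in shHNRNPU replicate 2.

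Borders at the ends were shared less often between libraries in 3 of the 4 libraries. Borders are the starts and ends of domains, each position taken once per library, and the libraries had 471, 473, 424 and 339 of them at the ends. A border within 1 bin was found in another library for 56.8%, 56.1%, 60.4% and 67.4% of these, as a mean over the other 3 libraries. In the rest the shares were 63.7%, 63.8%, 64.8% and 64.7%. The mean difference of −4.12 ± 4.73 percentage points (SD, n = 4) was smaller than its SD (exact sign-flip permutation p = 0.25), and was −6.45 points without shHNRNPU replicate 2. These borders include the limits of a chromosome, which match in any libraries that have a domain there. Without them, a choice made after the values were seen, the mean difference was −6.39 points. With a match required at the same bin the direction turned, to 5.94 points higher at the ends in the mean of 4 libraries (exact sign-flip permutation p = 0.13). That value includes the borders at chromosome limits, and their part in it was not tested.

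Libraries of a group did not share clearly more borders than libraries of different groups. The Jaccard index is the number of shared borders over the number of distinct borders in a pair. At the ends it was 0.458 for the shLUC pair and 0.416 for the shHNRNPU pair. Across the groups, shHNRNPU replicate 1 reached 0.434 with shLUC replicate 1 and 0.438 with shLUC replicate 2, while shHNRNPU replicate 2 reached 0.406 and 0.388. Each of the 6 pairs had a lower index at the ends than in the rest, where it ran from 0.428 to 0.517. The mean between groups minus the mean within groups was −0.0202, smaller than the spread among the pairs, and its sign changed to 0.00469 without shLUC replicate 2 and to 0.00251 for borders away from gaps. Omitting shHNRNPU replicate 1 gave −0.0608 and omitting shLUC replicate 1 gave −0.00282. Pairs of libraries had only 29 to 38 domains with the same start and end at the ends.

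The number of subtelomeric domains was lower in shHNRNPU, but 1 library set the size of the difference. The group means were 318.5 ± 3.54 domains in shLUC and 265.5 ± 55.9 in shHNRNPU (SD, n = 2 each), a difference of −53 domains or −16.6% (exact permutation p = 0.33). This was below the SD of the shHNRNPU libraries. Leaving out shHNRNPU replicate 2 brought it to −13.5 domains, and leaving out shHNRNPU replicate 1 to −92.5. In the rest the difference was −240.5 domains, or −6.93%. To ask whether the ends lost more than the rest, the density at the ends was divided by that of the rest. The log2 of this ratio was 0.34 and 0.36 in shLUC and 0.28 and 0.03 in shHNRNPU, a difference of −0.19 (exact permutation p = 0.33) that came to −0.07 with shHNRNPU replicate 1 alone and to −0.32 with shHNRNPU replicate 2 alone.

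The median length of subtelomeric domains differed by 100 kb (440 ± 0 kb against 540 ± 84.9 kb, SD, n = 2 each, exact permutation p = 0.33). It was 1 bin (40 kb) with shHNRNPU replicate 1 alone and 160 kb with shHNRNPU replicate 2 alone. Short domains of 200 kb or less numbered 66 and 70 in shLUC and 50 and 41 in shHNRNPU, without overlap (exact permutation p = 0.33). In the rest they numbered 281 and 303 in shLUC and 278 and 283 in shHNRNPU, with overlapping groups. Domains of 2 Mb or more numbered 5 and 2 in shLUC, and 5 and 17 in shHNRNPU. Boundary regions numbered 40 and 34 in shLUC and 36 and 18 in shHNRNPU, with overlapping groups and a difference of −10 (exact permutation p = 0.667), which became −1 when shHNRNPU replicate 2 was left out and −19 when shHNRNPU replicate 1 was.

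Taken end by end, the domain counts of both shHNRNPU libraries lay below those of both shLUC libraries at 10 of 39 ends (25.6%), where the same held for 15.8% of all 545 windows of 5 Mb, ends included. Both had more at 3 ends (7.69%), against 6.42% of the windows. The 10 ends were 4p, 7p, 7q, 8p, 9q, 10q, 11p, 16p, 16q and 21q. Fewer libraries have to differ when 1 is left out, and the count was then 22 without shHNRNPU replicate 1, 18 without shLUC replicate 1 and 13 or 14 without either of the other libraries. shHNRNPU replicate 1 lay below both shLUC libraries at 13 ends (33.3%) and above both at 12 (30.8%). Of all 545 windows, it lay below both in 24.4% and above both in 21.3%. shHNRNPU replicate 2 lay below both shLUC libraries at 22 ends and above both at 3.

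**Figure D3:**
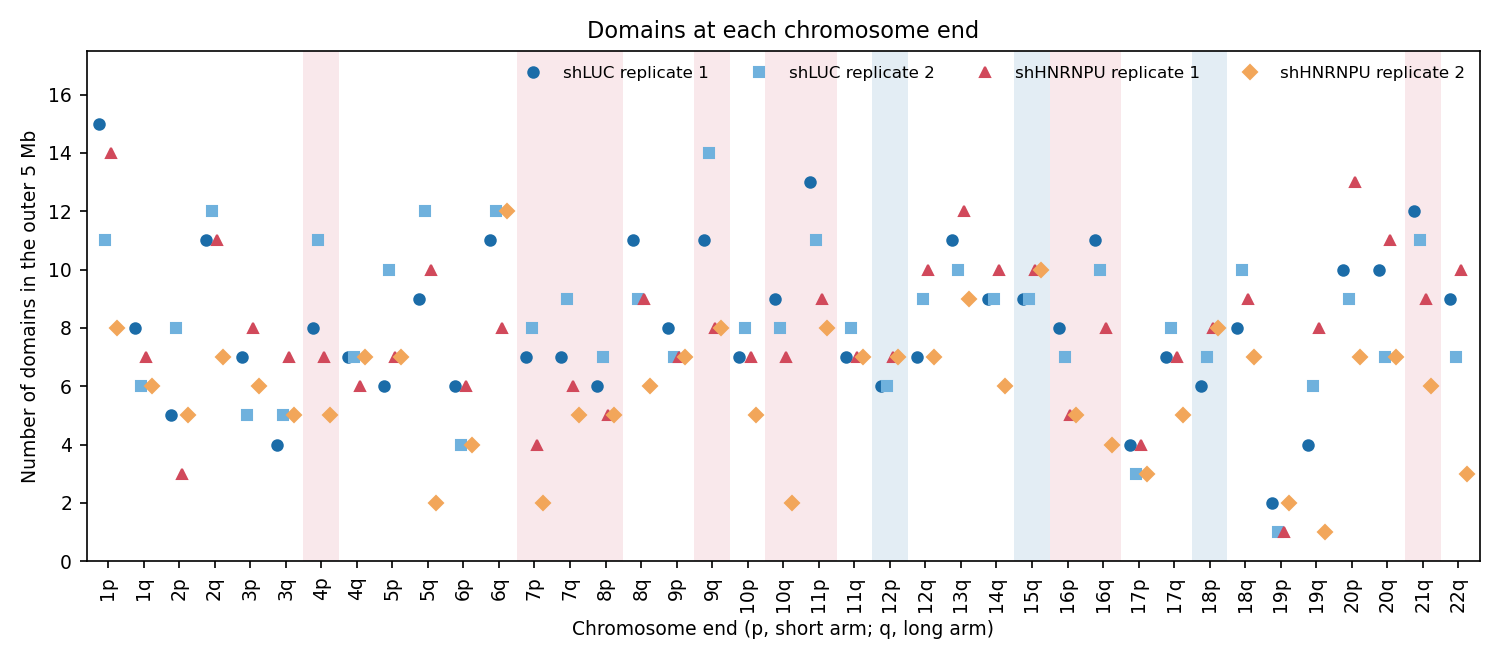
Number of domains with a midpoint in the outer 5 Mb of each of 39 chromosome ends, with 1 symbol per library. Red shading marks the 10 ends where both shHNRNPU libraries lie below both shLUC libraries, and blue shading the 3 ends where they lie above.

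The largest falls among these ends were on 7p, 9q and 16q, each by 4.5 domains between the group means. On 7p there were 7 and 8 domains in shLUC and 4 and 2 in shHNRNPU. On 9q there were 11 and 14 in shLUC and 8 in each shHNRNPU library. On 16q there were 11 and 10 in shLUC and 8 and 4 in shHNRNPU. The rises were smaller. On 18p the counts were 6 and 7 in shLUC and 8 in each shHNRNPU library, and on 12p and 15q each shHNRNPU library had exactly 1 domain more than each shLUC library (7 against 6, and 10 against 9).

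The ends themselves differed widely. 1p had the most domains (15, 11, 14 and 8), followed by 6q (11, 12, 8 and 12) and 13q (11, 10, 12 and 9). The fewest were on 19p (2, 1, 1 and 2), 17p (4, 3, 4 and 3) and 19q (4, 6, 8 and 1), where the libraries differed most on 19q. These 3 ends held 201, 114 and 181 protein-coding genes, against 96 on 1p, 30 on 6q and 42 on 13q. Over all 39 ends the mean domain number was hardly related to the number of genes (Spearman's rho 0.123, Pearson's r −0.185, and r 0.112 without the 2 ends with the most extreme gene numbers). The ends share the same libraries, so this is a description only.

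**Figure D4:**
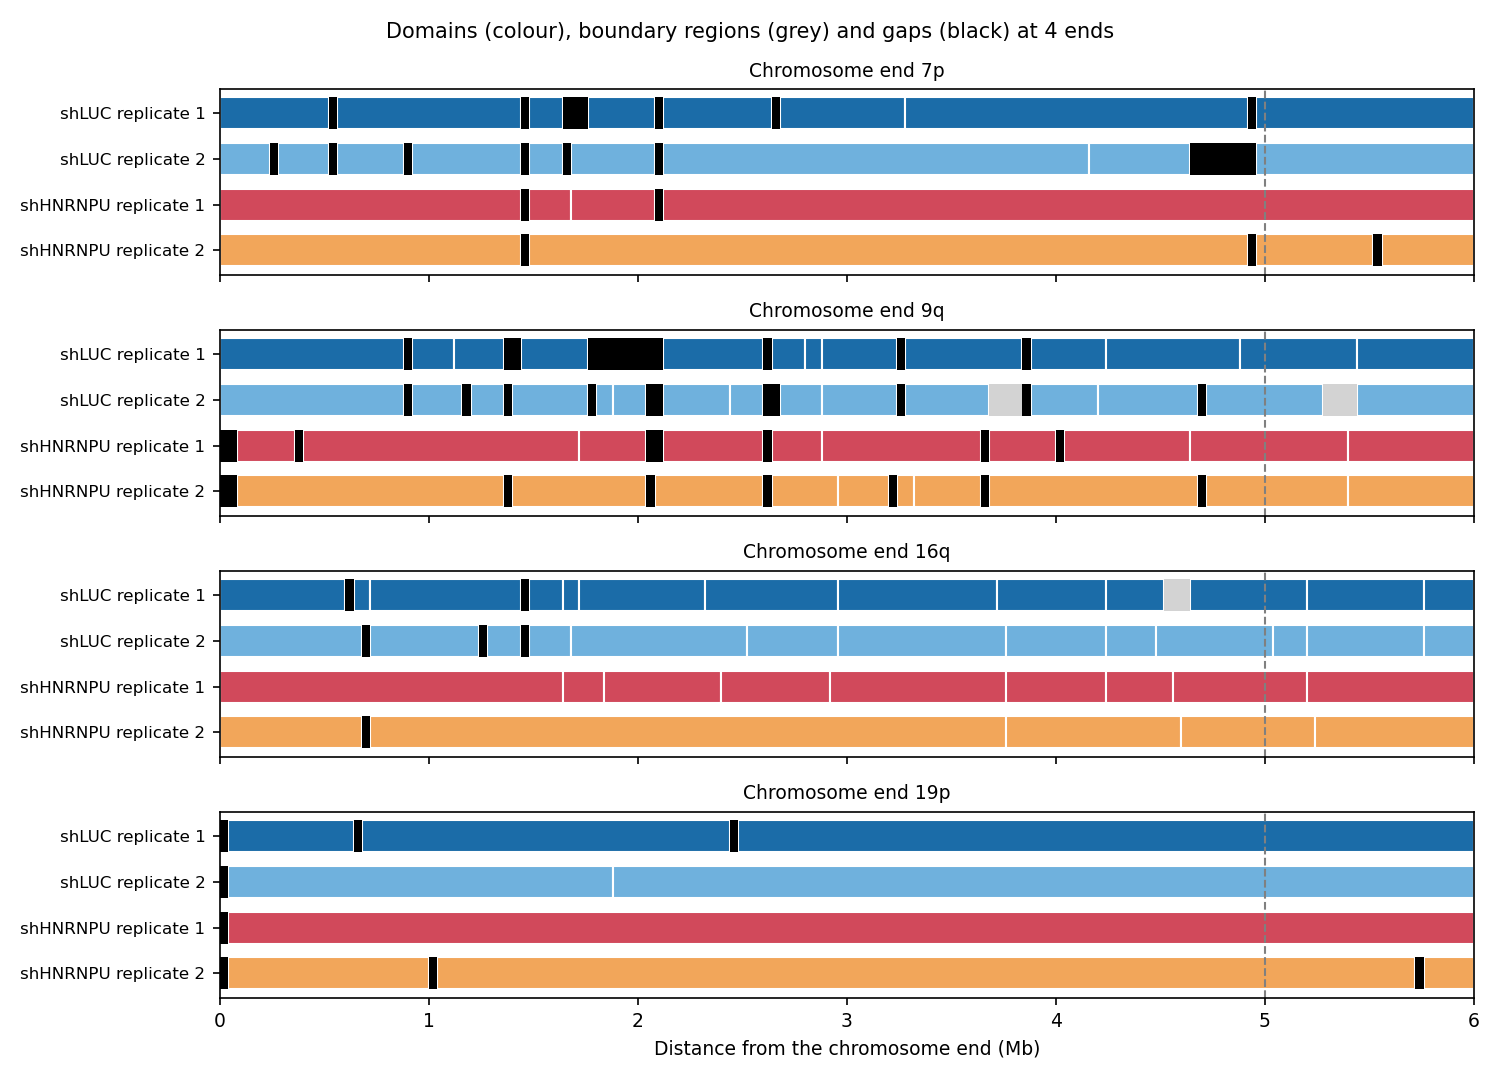
Intervals in the outer 6 Mb of 7p, 9q and 16q, the ends with the largest falls, and of 19p, the end with the fewest domains, against the distance from the end in Mb, with 1 row per library. Domains are coloured with white lines between them, boundary regions grey, gaps black and the 5 Mb limit dashed. Domains run further without a break in the shHNRNPU libraries on 7p, and on 19p long domains extend beyond the window.

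Gap sequence at the ends was the measure on which the groups lay farthest apart relative to their spread. It came to 10.48 and 10.6 Mb in shLUC and to 7.32 and 8.04 Mb in shHNRNPU, without overlap. The means were 10.54 ± 0.0849 and 7.68 ± 0.509 Mb (SD, n = 2 each), a difference of −2.86 Mb or −27.1% (exact permutation p = 0.33). The rest of the autosomes held 120.36, 120.88, 120.6 and 120.48 Mb of gap, a difference of −0.08 Mb with overlapping groups (exact permutation p = 1.0). Of the −2.94 Mb between groups over the autosomes, −2.86 Mb thus lay in 6.78% of the sequence. The test of this contrast, gap at the ends minus gap in the rest, gave −2.78 Mb (exact permutation p = 0.33). The difference ran from −3.22 to −2.5 Mb with each library left out, and was −1.98 Mb without 8q.

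By end, both shHNRNPU libraries had less gap than both shLUC libraries at 12 of 39 ends, and more at 2. At 25 ends the groups were equal or overlapped. Of the 545 windows 5.69% had less and 1.83% more. Windows with equal gap in the libraries can meet neither rule, and gap varied between libraries in only 0.369% of the bins of the rest. These windows are thus not a like background for the ends. On 8q the gap length was 1520 and 1560 kb in shLUC and 560 and 760 kb in shHNRNPU. On 4p it was 720 and 680 kb against 320 and 240 kb. The opposite was seen on 14q, with 1000 kb in each shLUC library against 1480 and 1320 kb. Of these 12 ends, 7 (4p, 7p, 9q, 10q, 11p, 16q and 21q) were among the 10 with fewer domains in both shHNRNPU libraries. Those 10 were 25.6% of the 39 ends. Domains, boundary regions and gaps fill the same sequence without overlap, so both measures are linked and the shared ends are not separate support. With shHNRNPU replicate 1 alone, gap was below both shLUC libraries at 15 ends (38.5%) and above both at 2 (5.13%). Of the 545 windows, 7.71% were below and 4.22% above. At the 13 ends with fewer than 3 gap bins in every library there were 90 and 98 domains in shLUC and 95 and 80 in shHNRNPU, so that the groups overlapped there (difference −6.5, exact permutation p = 0.667). Without shHNRNPU replicate 2 this difference was 1.

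**Figure D5:**
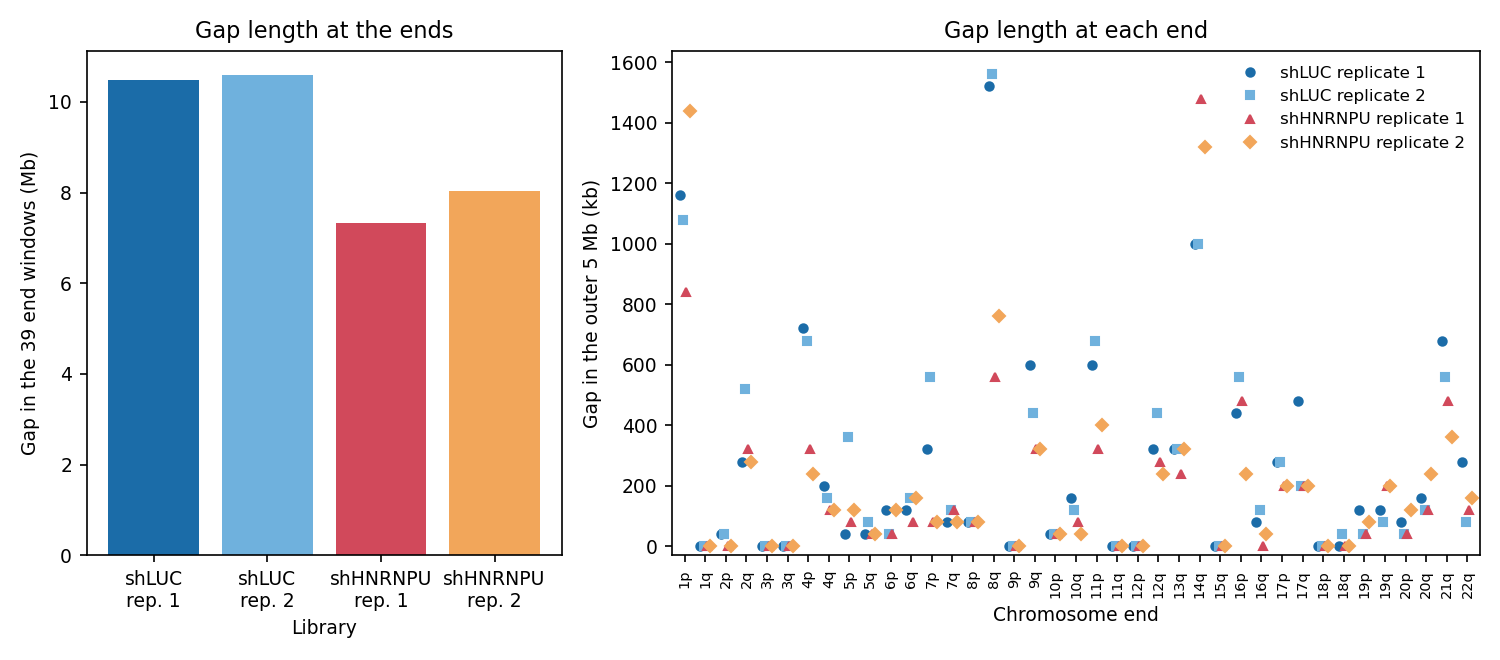
Gap length in Mb summed over the 39 end windows by library (left, bars from 0) and gap length in kb at each end (right, 1 symbol per library). The shLUC libraries hold 10.48 and 10.6 Mb and the shHNRNPU libraries 7.32 and 8.04 Mb, with 8q the largest contributor and 14q opposite in direction.

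Single bins showed where this gap lay. A bin was gap in both shLUC libraries and in neither shHNRNPU library 39 times at the ends, or in 0.8% of 4875 bins, and 23 times in the 67009 bins of the rest (0.0343%). Over the autosomes 0.0863% of bins met this. The reverse, gap in both shHNRNPU libraries only, held for 10 bins at the ends (0.205%) and for 18 in the rest (0.0269%). Over the autosomes 0.039% of bins met it, so both directions were more frequent at the ends. Bins that were gap in a single library at the ends numbered 48 and 55 for shLUC and 13 and 24 for shHNRNPU. In the rest they numbered 24 and 37 for shLUC and 30 and 39 for shHNRNPU. Bins that were gap in some but not all libraries made up 6.01% of the bins at the ends and 0.369% of those in the rest. Gap thus varied between libraries more often at the ends than in the rest. With shHNRNPU replicate 1 alone, 66 bins at the ends (1.35%) were gap in both shLUC libraries only and 23 (0.472%) in shHNRNPU only. In the rest these were 31 (0.0463%) and 48 (0.0716%). A further 100 bins at the ends were gap in all 4 libraries.

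The 39 bins formed 27 runs at 12 ends, with 16 bins on 8q, 6 on 4p and 4 on 9q. The longest run, of 6 bins on 8q from 144320001 to 144560000 (hg38), overlapped 23 protein-coding genes. They include DGAT1, an enzyme of triglyceride synthesis, RECQL4, a DNA helicase, and FOXH1, a transcription factor that acts with SMAD proteins. The bin on 16q from 88800001 to 88840000 overlapped CDT1, whose promoter is printed above, with APRT, an enzyme of purine salvage, and GALNS, a lysosomal sulfatase. The bin on 7p from 520001 to 560000 overlapped PDGFA, a growth factor, and PRKAR1B, a regulatory subunit of protein kinase A. On 11p the bin from 520001 to 560000 overlapped HRAS, a small GTPase. These genes were named after their bins were seen.

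Gene density was high in these bins. They held 38.5 protein-coding genes per Mb (30.4 without 8q), against 11.9 in bins at the ends that were gap in no library and 19 in those that were gap in all 4. The 47 promoters that start in them had a median G and C content of 69.7%. AAGCTT occurred in 0 of 47, which allows a share of up to 6.38% if they are independent. These promoters belong to 39 genes, and many share a run of bins, so the limit is wider. The share over all promoters at the ends, 3.88%, lies within that limit. Over the 39 ends the number of genes and the mean number of gap bins rose together (Spearman's rho 0.575, Pearson's r 0.33, and r 0.433 without the 2 extreme ends), again as a description over ends that share their libraries. The part of base composition, restriction sites or library depth in the gap difference was not tested.

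Borders found in both shLUC libraries and absent within 3 bins (120 kb) in both shHNRNPU libraries, called lost here, numbered 34 of 296 shared borders at the ends (11.5%), where 5.94% of all autosomal shared borders were called. In the rest the share was 5.37% (153 of 2850). Of the 34, 23 lay within 3 bins of a gap of some library, and among shared borders away from gaps 11 of 145 were lost (7.59%), against 5.32% in the rest. Some of the 23 were edges of the bins described above that were gap in both shLUC libraries only. A single such bin could give both of its edges, as at 520000 and 560000 on 7p. The 11.5% is thus in part a second reading of those bins. Borders gained in shHNRNPU by the same rule numbered 4 of 224 (1.79%), where 2.85% of the autosomal borders were called, and all 4 lay away from gaps. With 1 library left out, fewer libraries have to share or lack a border, and 56 to 91 borders were lost and 16 to 36 gained. The lost count was 91 and 86 when shLUC replicate 1 or 2 was omitted, and 82 and 56 when shHNRNPU replicate 1 or 2 was. The gained count was 16, 16, 18 and 36 in that order.

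The lost border farthest from any shHNRNPU border was on 16p at 3120000, 920 kb away, inside domains of 2880 and 4280 kb. Like the other borders named here, it was chosen among those more than 3 bins from any gap, and some lost borders near gaps lay farther away than the next. The next lost borders away from gaps were on 3q at 195280000 and on 17q at 80000000, each with its closest shHNRNPU border 320 kb away. The gained border on 3q, at 197680000 in shHNRNPU replicate 1 and 197640000 in replicate 2, was 600 kb from any shLUC border and fell within the outermost domain of 2240 and 1320 kb in the shLUC libraries. Those on 20q (59920000 and 59960000) and 8p (1720000 and 1760000) lay 400 and 280 kb away. All 3 gained borders were 1 bin apart between the shHNRNPU libraries and fell out of the call once the match was restricted to identical bins.

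The outermost interval of an end was a domain at 27, 27, 26 and 25 of 39 ends and a gap at 11, 11, 12 and 14. It was of the same kind in all 4 libraries at 34 ends. The first domain from the end had a median length of 520, 560, 640 and 880 kb, the longest being in shHNRNPU replicate 2. It had the same limits in all 4 libraries at 2 ends, in both shLUC libraries at 7 and in both shHNRNPU libraries at 8.

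Of 14 genes known to lie near chromosome ends, all fell in the windows, and 13 were placed. PRDM16 on 1p and HBA1 on 16p had no promoter entry to give their start. HBA1, which is shorter than a bin, was placed by its midpoint, and PRDM16, which spans several bins, is named only. HNRNPU itself starts 4.14 Mb from the end of 1q. It lay in domains of 240 and 520 kb in shLUC and 640 and 800 kb in shHNRNPU. The nearest border was 24.5 and 15.5 kb from its start in shLUC and 215 kb in both shHNRNPU libraries, since the border at 244840000 in shLUC replicate 1 and 244880000 in replicate 2 was among the lost. These positions lie 1 bin apart and 200 kb from the nearest shHNRNPU border, so the call is lost when matches are limited to identical bins or when absence is required over 5 bins. The gene started on the outer side of this border in shLUC replicate 1 and on its inner side in shLUC replicate 2. The lengths of 240 and 520 kb are thus those of neighbouring domains and not of 1 domain seen in both libraries. 

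Over all protein-coding genes at the ends whose midpoint lay in a domain in all 4 libraries, 514 of 1982 (25.9%) had a longer domain in both shHNRNPU libraries than in both shLUC libraries, where 19.8% of autosomal genes did. A shorter domain in both was found for 50 (2.52%), where 7.1% of autosomal genes had one. With shHNRNPU replicate 1 alone, 818 (41.3%) were in a longer and 504 (25.4%) in a shorter domain, against 30.4% and 26.4% of autosomal genes. Many of these genes share a domain, so they are not independent. Of the listed genes, 9 lay in a domain in every library, and for 5 of them both shHNRNPU domains were the longer. These were HNRNPU, whose shLUC domains are neighbours on opposite sides of a border, and the following. STK11, a tumour suppressor kinase on 19p, lay in domains of 1.76 and 1.84 Mb in shLUC and 9.8 and 4.68 Mb in shHNRNPU. EHMT1, a histone H3 lysine methyltransferase on 9q, lay in domains of 880 kb in both shLUC libraries and 1320 and 1280 kb in shHNRNPU. VIPR2, a neuropeptide receptor on 7q, lay in domains of 480 and 360 kb in shLUC and 760 and 2400 kb in shHNRNPU. FRG1, a gene of the region linked to facioscapulohumeral dystrophy on 4q, lay in domains of 880 and 360 kb in shLUC and 960 kb in each shHNRNPU library.

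At other genes the groups overlapped or hardly differed. PAFAH1B1, a regulator of dynein on 17p, lay in domains of 2.8 and 2.56 Mb in shLUC and 0.72 and 8.24 Mb in shHNRNPU, with the shHNRNPU libraries on opposite sides. CHL1 lay in the outermost domain of 3p, of 480 and 400 kb in shLUC and 560 and 440 kb in shHNRNPU. SHANK3, a scaffold protein of synapses on 22q, lay in a domain of 600 kb in both shLUC libraries and shHNRNPU replicate 1, and of 1040 kb in shHNRNPU replicate 2. HBA1, an alpha globin gene on 16p, lay in domains of 760, 760, 680 and 760 kb. TERT, the catalytic subunit of telomerase on 5p, started in a domain of 1000 kb in shLUC replicate 1 and in a gap in shLUC replicate 2. In both shHNRNPU libraries it started in a domain from 1280001 to 1640000.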

How the data were processed

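Per the labels, Hi-C libraries were made from H1 cells, and the titles gave the group and number of each library. The authors deposited 12 interval files (domains, boundary regions and gaps, 3 per library) with no scores. The submitters' processing notes name Bowtie2 and hg38. The domain caller, matrix normalization and settings are not given in the sources used here, and each can change domain number, length and gaps. The paper linked to the series describes other experiments. All RefSeq genes of GRCh38.p14 lay inside the chromosome limits of the files on 22 of 22 autosomes. All positions were multiples of 40 kb. Midpoints assigned intervals to ends, gap and boundary length were clipped to the windows, and borders were matched one to one within 1 bin. Ends and rest were compared by an exact two-sided sign-flip test over libraries, groups by an exact two-sided permutation test. The limits in the text cover counting error only. Named ends were the 3 with the most and fewest domains and the 3 largest falls and rises among ends whose groups did not overlap. Named borders were the 3 lost and 3 gained farthest from the other group and away from gaps. The 14 genes were listed as lying near ends. Members, lists and rules were chosen with earlier results of these data known. Alternatives were other windows, domain filters, matching distances, chromosome sets, omission of each library and a replicate block. The border matching was checked on simulated data. Python 3.11.15, numpy 2.4.6, scipy 1.17.1, pandas 2.3.3 and matplotlib 3.10.9 were used. No genome sequence was used, so base content and HindIII sites over whole windows and telomere repeats were not analysed here.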

Additional observations from a re-analysis of the deposited data

How the results depend on the processing

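Depth is unknown and limits every count, since fewer contacts can yield fewer called borders. Of the alternatives that kept all libraries, 3 turned a direction. The density difference between ends and rest became −0.372 domains per Mb without domains that touch a gap of any library. This removed a larger share of the domains at the ends than in the rest. The border sharing difference became 5.94 percentage points with a match at the same bin, and the index between minus within groups became 0.00251 for borders more than 3 bins from any gap; for both the cause was not tested. Counts followed the definition. Lost borders numbered 53 with absence within 1 bin, 20 with absence within 5 bins, 11 away from gaps and 17 with a window of 2.5 Mb. Gained borders numbered 11 with absence within 1 bin, 1 with only same-bin matches, 8 with a window of 10 Mb and 2 with a window of 2.5 Mb. With each library left out in turn, lost borders ran from 56 to 91, gained borders from 16 to 36, ends with fewer domains from 13 to 22 and the index from −0.0608 to 0.00469. The other 78 values with all libraries and 40 with a library left out kept their direction, or for counts stayed within 1.5 times. Among the 78, 1 (domains per Mb of their own sequence) was mean length restated, and those of the replicate block could not change. Pairing libraries by number as a replicate block gives the same differences by construction, so only the p-value could differ. The differences were −53 domains, 100 kb, −10 boundary regions, −2.86 Mb of gap and −0.19 in the log2 density ratio (exact sign-flip permutation p = 0.5 each, the smallest for 2 pairs). Nothing in the labels ties a replicate number to a batch, and deviations from the group means correlated at 0.221 between libraries with the same number over 39 ends. The values without the ends rich in gaps, without 8q and without borders at chromosome limits were chosen after seeing the data, as were the counts of gap and genes with shHNRNPU replicate 1 alone.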

Other observations

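Long arms held more subtelomeric domains than short arms in each library, a difference that was not tested. The 22 long-arm ends had a mean of 8.73, 9 and 8.64 domains in shLUC replicates 1 and 2 and shHNRNPU replicate 1, and 6 in shHNRNPU replicate 2. The 17 short-arm ends had 7.29, 7.24, 6.76 and 5.53. The 17 domains of 2 Mb or more in shHNRNPU replicate 2 included one of 8.24 Mb on 17p, and the longest of all, 9.8 Mb on 19p from 40001 to 9840000, was in shHNRNPU replicate 1. Near the 5 Mb limit, domains with a midpoint up to 500 kb inside numbered 30, 26, 33 and 20, and those up to 500 kb outside 30, 32, 26 and 20. The limit was crossed by 37, 34, 34 and 36 domains.

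A few listed genes started in different kinds of interval. DMRT1, a transcription factor of testis development on 9p, started in a domain of 880 kb in shLUC replicate 1, in a boundary region in shLUC replicate 2, and in domains of 720 and 880 kb in shHNRNPU. COL18A1, a basement membrane collagen on 21q, started in a boundary region in shLUC replicate 1 and in domains of 1360, 1320 and 1840 kb in the other libraries.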
